A study of Mus musculus with 10 samples.

Results

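The 9 Pax genes of the mouse, Pax1 to Pax9, were examined for the repressive histone mark H3K27me3 in LT-HSCs, the long-term stem cells of the blood. A gene was counted as called in a library when a peak overlapped its body or its promoter, the window from 5 kb before to 100 bp after each annotated start of transcription, by at least 1 bp. The family makes up 9 of 21938 protein-coding genes, and 160 of the peaks in the 6 libraries lay on it. The assay was CUT&Tag, in which an antibody-directed Tn5 transposase cuts where the mark lies on chromatin. LT-HSCs had been sorted as LSK CD48-CD150+ cells from fetal liver at E14.5, from 3 wild-type (WT) and 3 IκBα knockout (KO) samples. The KO embryos carried the targeted allele Nfkbia tm1Bal, in which IκBα, an inhibitor of NF-κB, is lost in all tissues. The colony also carried the Gfi1:tomato reporter in part of the matings, and its presence per library was not given in the sources used here. The study used more embryos than libraries of each genotype, so some libraries held cells of several embryos, and which ones was not given. The p-values measure the spread between these libraries. Values of a genotype are given below in the order of replicates 1, 2 and 3 unless libraries are named.

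Pax proteins are transcription factors that bind DNA through a paired domain and direct the formation of organs in the embryo. Pax1 and Pax9 act in the skeleton, thymus and pharyngeal pouches, Pax2 and Pax8 in kidney, ear and thyroid, Pax3 and Pax7 in neural crest and muscle, and Pax4 and Pax6 in the pancreas, the latter also in eye and brain. Pax5 stands apart as the commitment factor of the B cell lineage, which descends from the stem cells studied here. H3K27me3 is laid down by Polycomb repressive complex 2 (PRC2), typically over CpG-rich stretches of developmental regulators that are not transcribed.

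All 9 Pax genes were called in at least 1 library, against 17.5% of all coding genes. Pax1, Pax2, Pax5, Pax6 and Pax9 were called in all 6 libraries, and each of these 5 had a promoter peak in every library. Over all coding genes, 3.47% were called in all 6 libraries and 2.65% had a promoter peak in all 6. Of the 5 Pax genes with a promoter and body of 50 kb or more, which offer more room for a peak, 2 were called in all 6, against 4.8% of coding genes of that length. Pax3, Pax7 and Pax8 were called in every library but WT replicate 3. Pax4 was called in WT replicate 2, KO replicate 1 and KO replicate 2. Counted by genotype, 5 of 9 members were called in all 3 WT libraries (3.85% of coding genes) and 8 of 9 in all 3 KO libraries (8.21% of coding genes). Without WT replicate 3 the WT count was 8, and the share of coding genes rose as well, to 11.3%.

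WT replicate 3 stood apart from the other libraries. It held 1047 peaks with a median width of 1727 bp and a median maximum of 6 fragments. The other 5 libraries held 2325 to 6013 peaks with median widths of 2835 to 3624 bp and median maxima of 9 or 10 fragments. The read totals that the study lists, not used in the comparisons here, were lower for both replicate 3 libraries than for the other 4. Both replicate 3 libraries had 50 bp reads and the other 4 had 75 bp reads, so read length was balanced between genotypes. Nfkbia itself had 0 peaks in every library, which gives no check of the genotype labels. Of 14 hematopoietic stem and progenitor genes such as Kit, Gata2 and Runx1, 0 were called in any library. The same held for 3 housekeeping genes, 5 hepatoblast genes, 3 erythroid and 3 myeloid genes. Of 4 endothelial genes, Kdr was called, in WT replicates 1 and 2, and of 3 B cell genes, Ebf1 was called in all 6 libraries. A missing peak does not show which cells were present, since the mark lies on silent genes.

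Peaks on Pax genes took 1.10, 1.08 and 0.60% of the summed signal of all peaks in WT and 0.959, 0.859 and 0.867% in the KO libraries. WT replicate 3 was the lowest and the other WT libraries were the highest, so the genotypes overlapped. Single Pax peaks ran from 672 bp to 30061 bp. The 77 peaks that touched a promoter had a median width of 5051 bp, and the 83 peaks in gene bodies only had one of 3347 bp. By total signal, the median promoter peak stood at the 79.4th percentile of its own library and the median body-only peak at the 44.3rd.

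**Figure D1:**
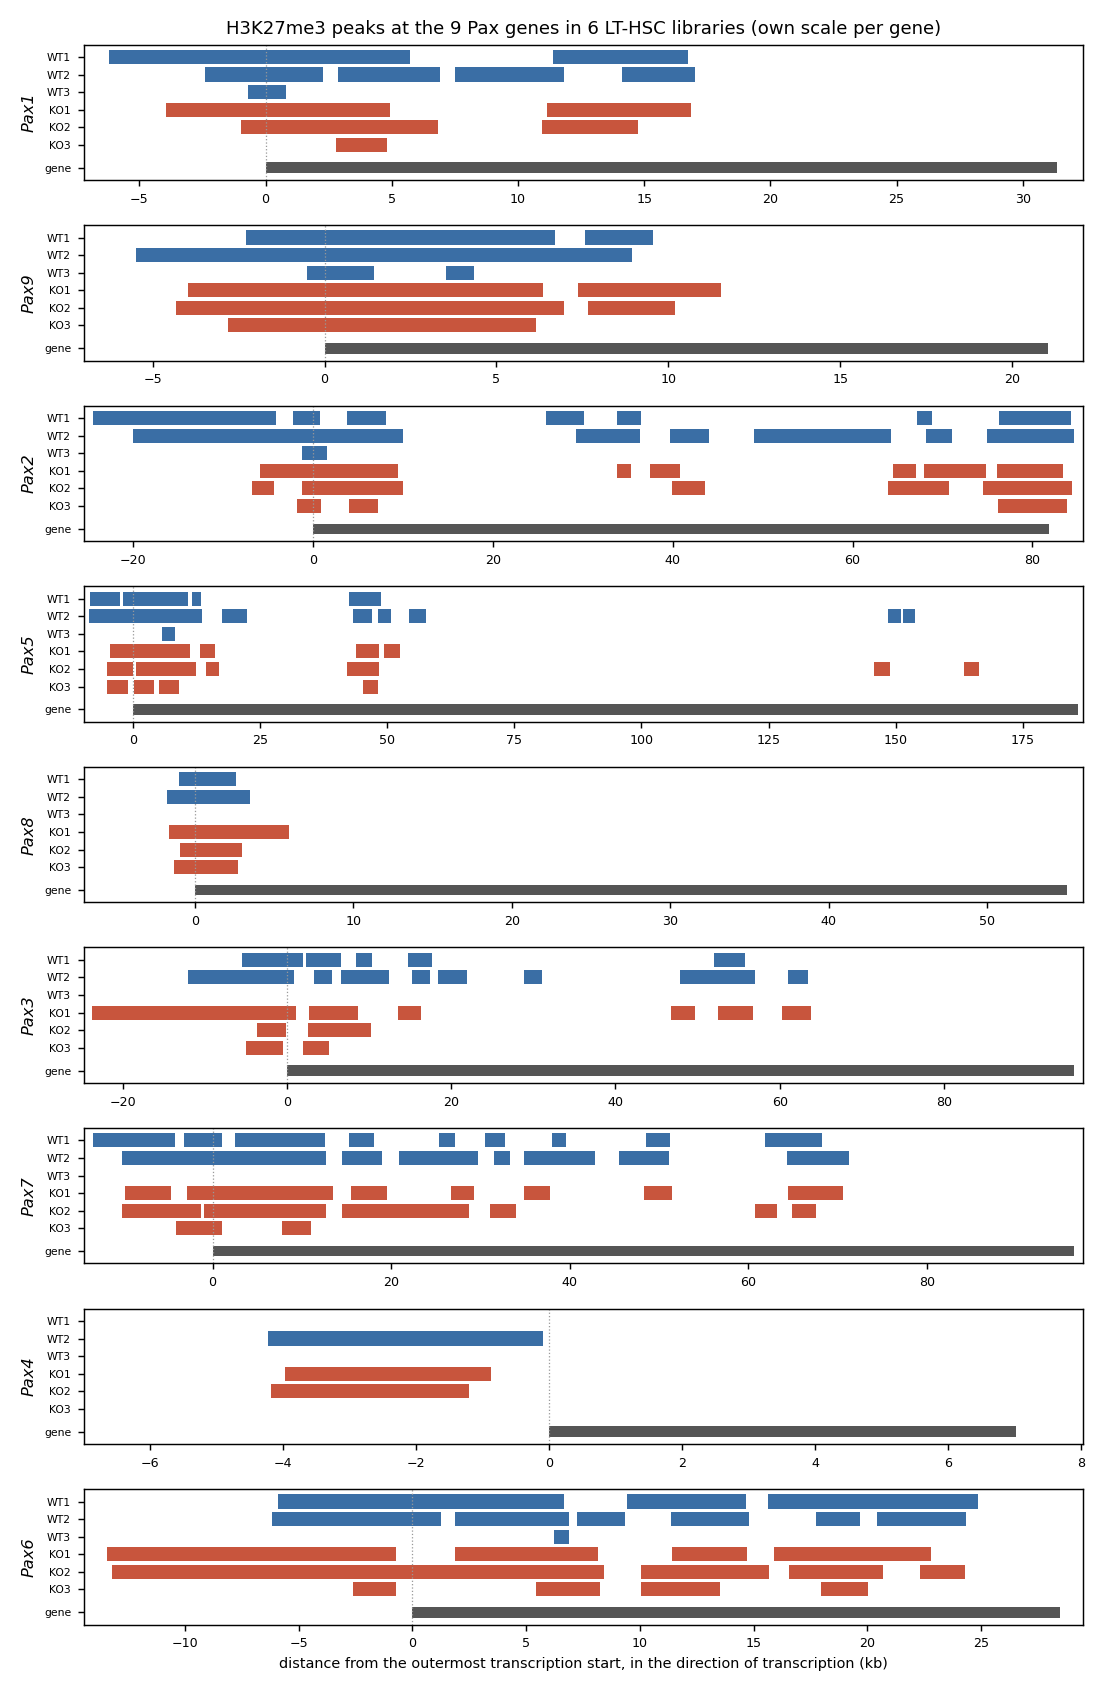
Peaks of each Pax gene in each library, with WT in blue, KO in red and the gene body in grey, against distance in kb from the outermost transcription start. Replicate 3 of WT has no bar at Pax3, Pax4, Pax7 and Pax8, and the peaks of Pax4 lie wholly upstream of the gene.

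The shared stretches of peaks were compared with the sequence beneath them. RefSeq promoters (GRCm38.p6, 250 bases before to 50 after a start) were matched for 7 of the 9 members, in all but Pax3 and Pax4, and gave 10 windows. The dinucleotide CG, which reads the same on both strands, was counted in each. Member promoters held 7 to 30 CG dinucleotides in 300 bases, and the median of all 32851 RefSeq promoters was 7. A CG is printed in capitals below, and bases of annotated exons are left out. The sequences shown mark where the libraries did and did not share a peak. In the Pax2 window on the plus strand, at chr19:44755502-44755801, all 300 bases lay under a peak in all 6 libraries, and 21.5% of all RefSeq promoters held as many CG dinucleotides as its 23.
Pax2 promoter: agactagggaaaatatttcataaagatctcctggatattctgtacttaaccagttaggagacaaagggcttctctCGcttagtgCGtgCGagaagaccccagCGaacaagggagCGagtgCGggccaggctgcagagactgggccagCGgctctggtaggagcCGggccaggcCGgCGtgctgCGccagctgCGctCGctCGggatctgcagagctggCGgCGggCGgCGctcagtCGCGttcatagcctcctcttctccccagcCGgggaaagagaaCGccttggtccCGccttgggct
For Pax9, on the plus strand, the bases shown lie upstream of the RefSeq start, at chr12:56695221-56695470. Of the 300-base window, 217 bases lay under the short peak of WT replicate 3, and all of it was covered in the other 5 libraries. Its 11 CG dinucleotides in 300 bases, of which 7 are upstream of the start, were matched or exceeded by 41.4% of promoters.
Pax9 promoter: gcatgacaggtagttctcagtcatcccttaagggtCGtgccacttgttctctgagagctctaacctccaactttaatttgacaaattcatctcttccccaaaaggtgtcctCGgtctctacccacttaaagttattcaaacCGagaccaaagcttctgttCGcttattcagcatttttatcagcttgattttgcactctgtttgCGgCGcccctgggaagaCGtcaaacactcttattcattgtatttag
The Pax1 window on the plus strand, at chr2:147364744-147364993, was covered by the only Pax1 peak of KO replicate 3 and not touched by that of WT replicate 3. It held 10 CG dinucleotides in these 250 bases.
Pax1 promoter: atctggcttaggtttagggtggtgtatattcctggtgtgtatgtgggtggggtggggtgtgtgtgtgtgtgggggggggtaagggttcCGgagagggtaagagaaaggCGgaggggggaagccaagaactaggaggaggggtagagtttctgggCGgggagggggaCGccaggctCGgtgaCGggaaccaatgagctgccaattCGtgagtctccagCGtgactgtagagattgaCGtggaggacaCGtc
For Pax5, on the minus strand, the RefSeq window at chr4:44710645-44710944 with 23 CG dinucleotides lay under a peak in WT and KO replicates 1 and 2 and in neither replicate 3 library.
Pax5 promoter: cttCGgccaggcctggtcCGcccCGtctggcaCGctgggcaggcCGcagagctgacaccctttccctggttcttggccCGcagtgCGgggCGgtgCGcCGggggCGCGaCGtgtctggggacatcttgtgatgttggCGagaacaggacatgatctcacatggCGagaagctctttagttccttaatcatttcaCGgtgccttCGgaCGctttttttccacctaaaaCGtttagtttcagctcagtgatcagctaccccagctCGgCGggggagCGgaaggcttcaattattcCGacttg
A stretch of Pax5 with the alternative starts at 44703413 and 44704006 lay under a peak in all 6 libraries. Of its 2516 bp, 1457 were promoter as defined above. The 300 bases of this stretch printed here, at chr4:44702500-44702799 on the minus strand, were chosen outside exons and held 5 CG dinucleotides. They are intronic and are centred 763 bp inside the gene from the start at 44703413.
Pax5 intron: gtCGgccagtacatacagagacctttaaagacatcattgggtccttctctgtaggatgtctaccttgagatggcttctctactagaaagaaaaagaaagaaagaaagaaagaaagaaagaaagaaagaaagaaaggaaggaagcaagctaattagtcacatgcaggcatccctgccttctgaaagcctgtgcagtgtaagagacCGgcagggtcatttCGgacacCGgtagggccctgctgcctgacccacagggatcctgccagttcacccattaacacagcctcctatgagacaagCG
The Pax8 window on the minus strand, at chr2:24475600-24475849, held 6 CG dinucleotides and was covered in the 5 libraries that called Pax8.
Pax8 promoter: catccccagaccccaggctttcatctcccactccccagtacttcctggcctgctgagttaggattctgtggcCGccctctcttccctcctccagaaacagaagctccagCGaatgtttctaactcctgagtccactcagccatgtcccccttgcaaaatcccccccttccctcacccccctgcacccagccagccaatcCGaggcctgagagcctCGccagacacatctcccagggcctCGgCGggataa

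Windows of 300 bases placed by the same rule, inside a stretch under peaks in all 6 libraries and outside exons, held 25 CG dinucleotides at Pax2 and 3 at Pax9. Among 16522 coding genes matched to a RefSeq promoter, a promoter peak in at least 1 library was found for 4.95% of those with fewer than 5 CG dinucleotides in their richest window, 16.3% with 5 to 9, 20.1% with 10 to 19 and 18.9% with 20 or more. Of the 7 matched Pax genes, 1 fell in the class of 5 to 9, 4 in that of 10 to 19 and 2 in the highest.

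Pax9 (chromosome 12, 56691767 to 56712822), which shapes teeth, palate and pharyngeal pouch derivatives, had a summit near the same internal start in every library. The point of highest signal lay at positions -10, -30 and -7 from the annotated start at 56695639 in WT and at -20, -12 and -5 in KO. All 6 libraries therefore had a summit within 30 bp of the same internal start, and 3842 to 3867 bp inside the gene from the outermost one. The maximum at this summit was 12, 18 and 11 fragments in WT and 16, 14 and 29 in KO. In WT replicate 1 another Pax9 peak, chr12:56699336-56701330, also reached 12. The position given for that library is that of the peak with more total signal. KO replicate 3 was the highest, and in that library the peak shared rank 7 by maximum with the Pax5 summit. The genotypes overlapped. Stretches of Pax9 of 1954 bp around the outermost start and of 823 bp around the internal ones, lay under a peak in all 6 libraries.

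Peaks covered 10981, 13934 and 2777 bp of Pax9 in WT and 14489, 13847 and 8975 bp in KO. WT replicate 3 was the lowest and KO replicate 3 the next lowest, and the genotypes overlapped. The difference was 0.68 in log2(bp + 100), KO minus WT (exact permutation test, two-sided, p = 0.6, adjusted p = 1). Pax1 (chromosome 2, 147361925 to 147393295), a regulator of the vertebral column, had 16094, 15937 and 1488 bp in WT and 14571, 11576 and 1997 bp in KO. Both replicate 3 libraries were far below the others and the genotypes overlapped (log2 difference -0.07, exact permutation test, p = 0.8, adjusted p = 1). The single Pax1 peaks of the replicate 3 libraries did not overlap each other. That of WT lay over the outermost start with a maximum of 5 fragments, and that of KO over the RefSeq start printed above with a maximum of 12. No base of Pax1 was therefore shared by all 6 libraries, as was true of 12.4% of the 718 regions called in all 6. AI646519 lay in the same merged region as Pax1 and Gm15524 in that of Pax9.

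Pax5 (chromosome 4, 44524757 to 44710487) is the largest gene of the family, at 190.7 kb with its promoter windows. Peaks covered 23478, 38114 and 2516 bp of it in WT and 26256, 31685 and 14666 bp in KO. WT replicate 3 was the lowest, WT replicate 2 the highest, and the genotypes overlapped (log2 difference 0.80, exact permutation test, p = 0.8, adjusted p = 1). The main region, chr4:44693493-44719102, also held 5730488B01Rik.

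Within that region the signal had more than 1 point of highest value. The summit lay at positions -604, -529 and -569 from the alternative start at 44704006 in WT replicate 1, WT replicate 3 and KO replicate 3. In WT replicate 2, KO replicate 1 and KO replicate 2 it lay 905, 752 and 1834 bp inside the gene from the start at 44710408. Each position was thus seen in both genotypes. The 2516 bp that WT replicate 3 called were shared by all 6 libraries and held the starts at 44703413 and 44704006, and 25.3% of them were exonic. The highest value was 12, 15 and 10 fragments in WT and 15, 12 and 29 in KO, with KO replicate 3 again on top. A separate intronic region, chr4:44657934-44668320, was called in every library but WT replicate 3 and also held 4930517J16Rik and Gm12462. The largest Pax5 peak stood between the 91.8th and the 99.6th percentile of total signal in the 6 libraries, and touched a promoter in each.

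Pax2 (chromosome 19, 44756045 to 44837871), required for kidney and optic nerve formation, carried some of the strongest peaks. Its largest peak ranked 25th, 5th and 77th by total signal in WT and 191st, 81st and 127th in KO. These ranks correspond to percentiles of 92.6 to 99.9. In KO replicate 3 the largest peak was not at the promoter but at the 3′ end, and the promoter peak of that library stood at the 60.7th percentile. Covered length was 22157, 51667 and 2850 bp in WT and 34650, 29853 and 11472 bp in KO. WT replicate 2 was the highest and WT replicate 3 the lowest, so the KO libraries lay between WT values (log2 difference 0.61, exact permutation test, p = 0.8, adjusted p = 1). A stretch of 2013 bp with the start at 44756045 was shared by all 6 libraries.

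A second Pax2 domain lay at the 3′ end of the gene, chr19:44805062-44840631, and was called in every library but WT replicate 3. The overall Pax2 summit lay in it, 79200 bp from the outermost start in WT replicate 1, 79902 bp in KO replicate 1 and 79803 bp in KO replicate 3. In WT replicate 3 and KO replicate 2 the summit lay in a peak over the 5′ end instead, at -1129 and 1014 bp from the outermost start. In WT replicate 2 a peak over the 5′ end and one in the 3′ domain tied at a maximum of 14 fragments. The highest point of the former lay at -17875 bp. The 3′ domain also held 1700039E22Rik and Mir6405, so the signal cannot be given to Pax2 alone. Shorter regions in the body, chr19:44781989-44792508 and chr19:44793494-44800088, were called in 3 libraries each. The former was called in WT replicates 1 and 2 and in KO replicate 1. When regions with a peak in at least 3 libraries were tested, with the smallest called signal filled in elsewhere, its log2 signal differed by -1.14 ± 0.46 (± SE, KO minus WT, limma adjusted p = 0.999). It ranked 10 of 3626 regions and was the only one of 22 Pax regions under an unadjusted p of 0.05, as were 1.85% of all regions. Of these 22, 11 had a positive difference, the largest being 0.86 ± 0.49 at the Pax3 promoter region (limma adjusted p = 0.999). Centred on the regions called in all 6 libraries the difference was -1.36 ± 0.46 at rank 5 (limma adjusted p = 0.997), with 1.54% of all regions under an unadjusted p of 0.05, and filled values enter both. AC138457.1 shared the promoter region of Pax2 and Gm20395 the former of these body regions.

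Pax8 (chromosome 2, 24420560 to 24475599), a thyroid and kidney regulator closely related to Pax2 and Pax5, bore a short domain. It had 1 peak in each library that called it, over the 5′ end, and none in the rest of its body. Covered length was 3574, 5197 and 0 bp in WT and 7553, 3911 and 4048 bp in KO. The 5 libraries with a peak overlapped between genotypes (log2 difference 2.01, exact permutation test, p = 0.4, adjusted p = 1). Without WT replicate 3 the log2 difference was 0.19. The largest peak stood at percentiles of 57.7 to 86.7. The region, chr2:24469657-24477334, also held Gm13415.

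Pax3 (chromosome 1, 78101267 to 78197134), a neural crest and muscle progenitor factor, had 19762, 33289 and 0 bp under peaks in WT and 25487, 11256 and 7766 bp in KO. The genotypes overlapped (log2 difference 1.70, exact permutation test, p = 0.9, adjusted p = 1). Pax7 (chromosome 4, 139737062 to 139833528), the factor of muscle satellite cells, had 32497, 53258 and 0 bp in WT and 35525, 39588 and 8511 bp in KO. The genotypes overlapped here as well (log2 difference 2.04, exact permutation test, p = 0.8, adjusted p = 1). Without WT replicate 3 both differences turned, to -0.97 for Pax3 and -0.86 for Pax7, with the 50 bp library of KO still included. Within the 75 bp libraries they were -0.60 and -0.15.

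Both genes bore several peaks along the body rather than 1 at the start. Pax7 had 9, 7 and 0 peaks in WT and 7, 6 and 2 in KO, and Pax3 had 5, 8 and 0 and then 6, 2 and 2. The replicate 3 libraries were the lowest of their genotype for Pax7. The promoter regions, chr1:78184671-78223248 for Pax3 and chr4:139820021-139859995 for Pax7, reached 38578 and 39975 bp when merged over libraries and were the widest merged regions of the family. Pax3 summits lay upstream of the outermost start in WT replicate 2 and KO replicates 1 and 3, at -9951, -6218 and -4301 bp. In KO replicate 2 the summit lay 4777 bp inside the gene. In WT replicate 1 the promoter peak tied at a maximum of 12 fragments with a body peak, chr1:78186783-78188678. The former had its highest point at -3271 bp.

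Pax6 (chromosome 2, 105668900 to 105697364), needed for eye, forebrain and pancreatic islets, was covered along most of its length in the 75 bp libraries. Peaks lay on 78.0, 67.6 and 2.01% of its promoter and body in WT and on 62.1, 75.2 and 30.6% in KO. Covered length was 26092, 22612 and 672 bp in WT and 20786, 25170 and 10253 bp in KO. WT replicate 3 was the lowest by far and the genotypes overlapped (log2 difference 1.19, exact permutation test, p = 0.9, adjusted p = 1). The only Pax6 peak of WT replicate 3, the shortest of all Pax peaks, held the start at 105675433, and 437 bp of it lay under peaks in all 6 libraries. All 437 bp were annotated as exon, around 4 starts. The RefSeq window at the outermost start was covered in 3 libraries, WT replicates 1 and 2 and KO replicate 2. Paupar and Pax6os1, non-coding neighbours, lay in the same merged region.

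Pax4 (chromosome 6, 28442334 to 28449353), a beta cell factor, was the least marked member. Its only region, chr6:28449451-28453586, lay wholly upstream of the gene. Peaks covered 0, 4136 and 0 bp in WT and 3111, 2966 and 0 bp in KO, and their maxima were 10, 9 and 7 fragments in WT replicate 2, KO replicate 1 and KO replicate 2. They stood at the 67.8th, 44.5th and 30.5th percentile of total signal, the lowest of the members called in each of these libraries. The log2 difference was 1.51 (exact permutation test, p = 1, adjusted p = 1). Leaving out 1 library moved it from 0.61, without WT replicate 1 or 3, to 3.31, without WT replicate 2.

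**Figure D2:**
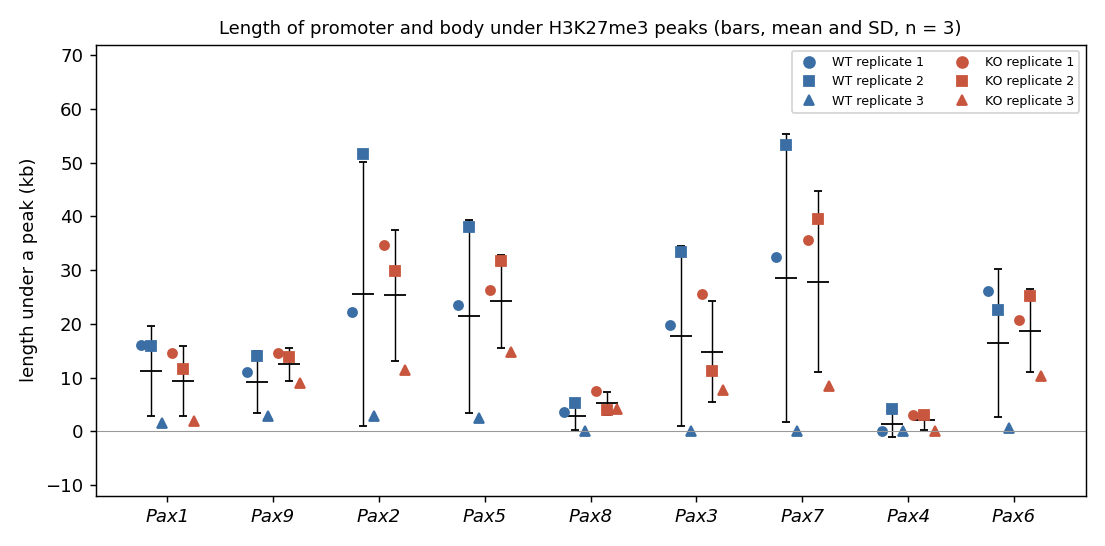
Length in kb of promoter and body under peaks, by gene, with 1 point per library (circle, square and triangle for replicates 1, 2 and 3) and black bars for mean and SD over 3 libraries. The triangles of WT lie at or below 2.85 kb for all 9 genes, and the genotypes overlap at each gene.

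**Figure D3:**
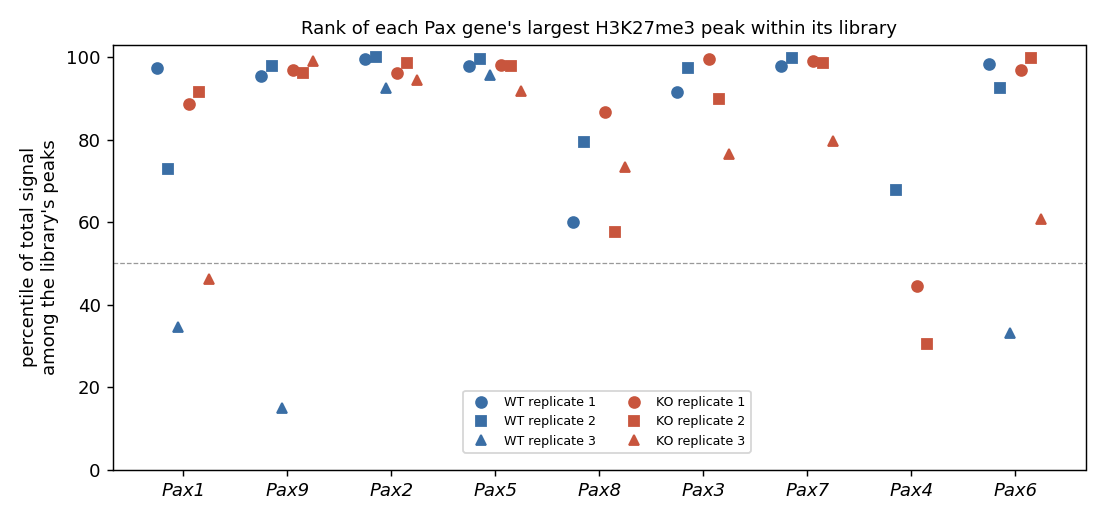
Percentile of each gene's largest peak by total signal among all peaks of the same library, with a dashed line at 50. Pax2 and Pax5 lie above 90 in all 6 libraries, in KO replicate 3 through the 3′ peak of Pax2, and points are absent where no peak was called.

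The question for the genotype comparison was whether loss of IκBα changed the mark on Pax genes. Over 3847 coding genes with a peak in any library, the median log2 difference in covered length was 0.61, and 1.59% had every KO library above every WT library and 0.078% the reverse. Of the 9 Pax genes, 0 fell in either class, and 8 had a positive difference. The direction rested on WT replicate 3. Without it the median over genes was -0.38 and 7 of 9 Pax genes had a negative difference. Within the 75 bp libraries the median over genes was 0.07 and 6 of 9 Pax genes had a negative difference. In the 50 bp pair, 10303 bp of Pax genes lay under peaks in WT and 67688 bp in KO, with 1 library each and no test. Where WT replicate 3 had 0 bp, the size of the difference depended on the pseudocount. With 1000 bp in place of 100 bp it was 0.67 for Pax3, 0.56 for Pax4, 0.99 for Pax7 and 0.97 for Pax8. With 3 libraries against 3 the test cannot give a p-value below 0.1, so no gene could pass 0.05 (64 genes reached the unadjusted p of 0.1).

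Signal was compared where every library had a peak and so gives a value. Total signal, the fragment coverage summed along a peak, was taken as log2 and centred on the library's median over 718 regions, so that 0 is a typical shared region. The Pax2 region stood at 1.98, 2.30 and 0.63 in WT and at 1.61, 2.09 and 0.36 in KO. The Pax5 region stood at 1.63, 1.56 and 0.79 in WT and at 1.36, 1.47 and 1.52 in KO. Both lay above the typical region in every library, and for both the genotypes overlapped.

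The Pax9 region stood at 0.87, 0.84 and 0.57 in WT and at 1.01, 0.82 and 1.27 in KO. The Pax6 region stood at 1.66, 1.84 and -0.26 in WT and at 1.57, 1.64 and 0.89 in KO. The Pax1 region stood at 0.89, 0.21 and -0.25 in WT and at 0.01, 0.21 and -0.68 in KO. Pax9 was thus above the typical region in 6 of 6 libraries, Pax6 in 5 of 6 and Pax1 in 4 of 6, and no gene had its genotypes apart.

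**Figure D4:**
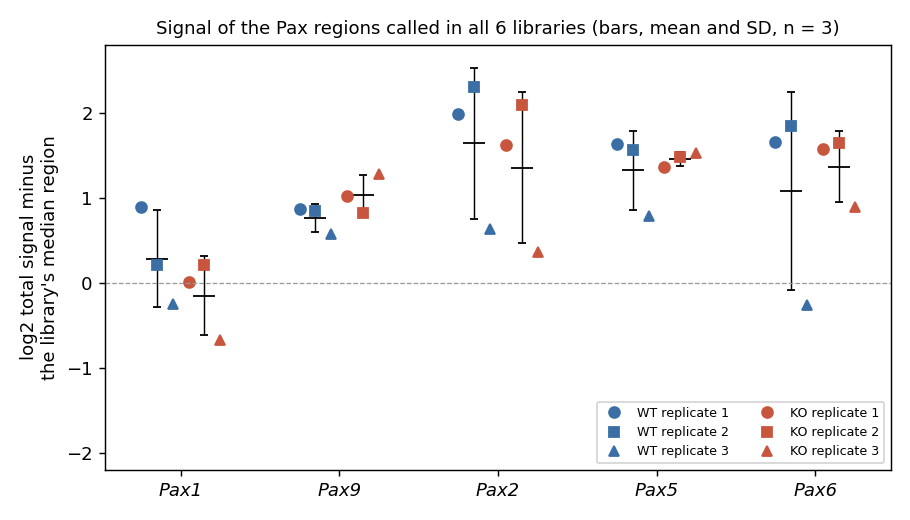
Total signal in log2, centred on each library's median region, for the 5 Pax regions called in all 6 libraries, with 1 point per library and black bars for mean and SD over 3 libraries. WT and KO points overlap at each gene, and the WT triangle is the lowest WT point throughout.

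By limma over the 718 regions, the KO minus WT difference in log2 signal was -0.43 ± 0.39 for Pax1, -0.28 ± 0.54 for Pax2, 0.13 ± 0.34 for Pax5, 0.29 ± 0.53 for Pax6 and 0.27 ± 0.31 for Pax9 (± SE, n = 3 each, adjusted p = 0.993 for all 5). Of all regions, 0% passed an adjusted p of 0.05 and 1.11% an unadjusted one, and 0 of the 5 Pax regions passed either. With the replicate number as a block, adjusted p lay between 0.907 and 0.919 for these regions. The median SE over all regions was 0.37. Without WT replicate 3, Pax5 and Pax6 turned to -0.12 and -0.37.

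Genes that work with Pax proteins were then set beside the family, as counts, to be read against the 17.5% of all coding genes called in at least 1 library and the 3.47% called in all 6. Of 11 partner genes, which form a regulatory network with Pax factors, 7 were called in at least 1 library. Six2 and Six3 were called in all 6, and Eya1, Eya3, Dach1 and Dach2 in none. Of 13 reported Pax targets outside B cells, 10 were called in at least 1 library. Myod1, Wt1, Nkx2-2, Nkx3-2 and Bmp4 were called in all 6, and Myf5, Mitf and Tg in none. Of 18 genes of the B cell programme around Pax5, 5 were called in at least 1 library. The transcription factors Ebf1 and Irf4 were called in all 6. A further 13 genes were called in none, among them the transcriptional regulators Tcf3, Bach2 and Pou2af1, the receptor components Cd79a and Cd79b and the recombinase gene Rag1.

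Each Pax gene was last matched to the coding gene outside its region with the most similar covered length over the 6 libraries, by the mean absolute difference of log2(bp + 100). The nearest were Fbxo41 to Pax1 (0.14), Gata4 to Pax2 (0.24), Rgma to Pax3 (0.25), Fam81a to Pax4 (0.037), Pear1 to Pax5 (0.16), Speg to Pax6 (0.25), Zbtb7c to Pax7 (0.26), Sptb to Pax8 (0.097) and Dusp8 to Pax9 (0.076). Dusp8 had 11065, 13572 and 3153 bp in WT and 13409, 14657 and 8748 bp in KO, close to the values of Pax9 in each library. All of these genes share the 6 libraries and their depth.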

How the data were processed

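CUT&Tag libraries for H3K27me3 from 3 WT and 3 KO LT-HSC samples were analysed, and 4 IκBα samples of the series were not analysed here. The authors trimmed reads (Trim Galore 0.6.6), aligned them to GRCm38 (Bowtie2 2.4.4), removed multi-mapped reads, low-quality alignments and duplicates, and called peaks per library with SEACR 1.3 in stringent mode without IgG, keeping the top 0.5%. The deposited files give total and maximum signal, the unscaled fragment coverage of each peak, in whole numbers. Unscaled signal and a threshold relative to each library both move with depth. Read totals are not in the files, and those listed by the study were not used, so signal was centred.

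Genes came from GENCODE M21. Regions were peaks of any library merged on overlap of at least 1 bp. Covered length, as log2(bp + 100), was tested per gene by exact two-sided permutation over 20 assignments. Log2 total signal at regions called in all 6 libraries was tested with limma 3.58.1 in R 4.3.3. Both used Benjamini-Hochberg adjustment over all features, at 0.05, and were tested on simulated data. Counts of called members had no test. Python 3.11.15 and numpy 2.4.6 were used. The text names all 9 Pax genes, every gene in their merged regions, examples of list members called in all 6 or in no library, and for each Pax gene the coding gene of most similar covered length. Kdr was named after its values were seen. Members and lists (partners, targets, B cell programme, stem cell, housekeeping, hepatoblast, endothelial, erythroid, myeloid and B cell genes) were chosen with earlier results of these data known. A few genes of these lists are not reported here and were left out of the counts.

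Groups and replicate numbers came from the labels. Over 718 regions, deviations from the genotype means correlated in each WT and KO pair that shared a number (r = 0.28, 0.31 and 0.48). Unmatched pairs among replicates 1 and 2 gave r of 0.27 (WT replicate 2 with KO replicate 1) and 0.12, and those of a replicate 3 with a replicate 1 or 2 were negative. The numbers were therefore used as a replicate block in an alternative fit. Other alternatives changed the scaling, signal measure, pseudocount, peak threshold, overlap, span and libraries.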

Additional observations from a re-analysis of the deposited data

How the results depend on the processing

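In every alternative run, 0 regions passed an adjusted p of 0.05 by limma. For covered length no gene could pass in any of them, which says nothing about stability. Directions of single Pax genes changed. Region signal, log2 KO minus WT, turned to 0.17 (maximum signal) and 0.050 (mean signal per base) for Pax1, and to -0.33 and -0.36 for Pax6. Mean signal per base gave -0.12 for Pax5. Scaling by summed signal moved the median over regions to -0.26, and with it Pax1 to -0.67, Pax2 to -0.52, Pax5 to -0.11, Pax6 to 0.048 and Pax9 to 0.033. The 75 bp libraries alone gave -0.16 for Pax5 and -0.13 for Pax6, and array weights -0.11 and -0.13. Leaving out 1 library each gave -0.69 (without WT replicate 3) to -0.13 (without WT replicate 1) for Pax1, 0.17 to 0.39 for Pax9, -0.78 to 0.23 for Pax2, -0.12 to 0.29 for Pax5 and -0.37 to 0.71 for Pax6.

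Covered length turned to 0.49 for Pax1 with the top 1047 peaks of each library. In the 75 bp libraries it was -0.073 for Pax2, -0.60 for Pax3, -0.053 for Pax5, -0.086 for Pax6 and -0.15 for Pax7. Leaving out 1 library each gave -1.18 to 0.81 for Pax1, -0.57 to 1.5 for Pax2, -0.97 to 3.22 for Pax3, 0.61 to 3.31 for Pax4, -0.38 to 1.56 for Pax5, -0.47 to 2.07 for Pax6, -0.86 to 3.67 for Pax7, 0.19 to 3.05 for Pax8 and -0.024 to 1.12 for Pax9. The lowest values of Pax2 to Pax9 came without WT replicate 3, for Pax4 also without WT replicate 1, and the highest of Pax2 to Pax9 without WT replicate 2, except Pax6 (without WT replicate 1). The replicate block changed no call of region signal. In this balanced design it cannot move a difference, only its error, and its smallest p for covered length is 0.25.

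Members called in all 3 WT libraries numbered 5 (3.85% of coding genes) and in all 3 KO libraries 8 (8.21%). With peaks above the library median they were 2 (1.76%) and 7 (4.17%), and with the top 1047 peaks of each library 4 (1.73%) and 6 (2.24%). In at least 2 of 3 libraries they were 8 (11.6%) and 9 (12.9%), and in the 75 bp libraries 8 (11.3%) and 9 (12.4%). Leaving out 1 library gave 5 to 8 in WT, highest without WT replicate 3, and 8 or 9 in KO. The share of all coding genes moved with each rule.

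A looser region set, needing a peak in at least 3 libraries with uncalled values set to the smallest called signal, gave 47 higher and 20 lower in KO at an unadjusted p under 0.05 when centred on all 3626 regions. Centred on the 718 regions called in all 6, a version added after seeing the data because filled values set the medians, it gave 4 higher and 52 lower. The direction of those counts therefore depended on the centring.

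Median maxima of 6 to 10 fragments limit single peaks, and the absence of a call in WT replicate 3 is not absence of the mark.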
